A study of Labrus bergylta with 24 samples.

Results

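The hind-gut of the ballan wrasse (Labrus bergylta) was compared with the intestinal segment just before it. The wrasse is a marine fish without a stomach, and its intestine was cut into 4 consecutive pieces, of which segment 4 is the hind-gut and segment 3 its anterior neighbour. The comparison took the 12 libraries of these 2 segments out of the 24 of the series, 6 a side, and paired them by fish, because each of the 6 fish gave all 4 segments. Of the 27392 gene models with a value, 18356 reached a normalised count of at least 10 in at least 6 of the 12 libraries and were compared. The fish were adults from a commercial fish farm, raised on a commercial wrasse feed and with food in the gut. No group was treated and no strain or genotype was given, so that both groups were untreated intestine of the same animals and differed in position along the gut. Total RNA of the rinsed segments was sequenced, and a lower level of a gene in such bulk samples cannot be told apart from fewer cells of the type that uses it. The labels name 6 fish, whereas the methods text counts fewer fish and more libraries, and all 12 labelled libraries were used.

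In fish and in suckling mammals the posterior intestine is known for cells that take in whole proteins. In zebrafish these are the lysosome-rich enterocytes, which bind protein from the lumen with the receptors cubilin and amnionless and the adaptor Dab2, draw it in by endocytosis and break it down in large acid vacuoles. The enterocytes in front of them work differently: brush border enzymes cut peptides and sugars outside the cell, and absorbed fat leaves as lipoproteins.

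Values are normalised counts, that is, reads scaled for the depth of each library with 1 factor per library. The libraries held 15528489 to 27818006 reads in segment 3 and 15698760 to 29650314 in segment 4, with medians of 18238347.5 and 21065920. The libraries of fish 2 stood apart from the others. Its segment 4 library lay closer to the mean of segment 3 in the other fish (root mean square difference 0.797 on the log2 scale) than to the mean of segment 4 (0.850), whereas the other segment 4 libraries lay at 0.606 to 0.908 from the segment 4 mean of the remaining fish and at 0.990 to 1.24 from that of segment 3. Its segment 3 library lay at 0.882 from the segment 3 mean, against 0.550 to 0.740 for the other 5. The labels were kept as given, and changes of named genes and counts of calls in the gene lists are given with fish 2 and without it.

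Changes were fitted on log2(value + 1) with limma, with fish as a block, and are given as log2 of segment 4 minus segment 3, so that 1 is a doubling. This scale understates the change of genes with low values. Of the 18356 gene models, 1139 (6.21%) passed an adjusted p of 0.05 with a higher level in segment 4 and 1270 (6.92%) with a lower level. Without fish 2 there were 1612 higher (8.78%) and 1724 lower (9.39%), and 2284 of the 2409 calls were shared with the same sign. Without the block, the 12 libraries gave 872 higher (4.75%) and 929 lower (5.06%). Counts of calls in the gene lists below are to be read against the shares of all models in the same fit. Among the calls, 517 were more than doubled and 555 more than halved, and 46 rose and 69 fell by over 4 on the log2 scale. The change had the same sign in all 6 fish for 1008 of the higher and 1054 of the lower models, against 18.2% of all models tested. The calls came from a fit paired over these same fish, which favours such models, so that this agreement is no separate support.

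**Figure D1:**
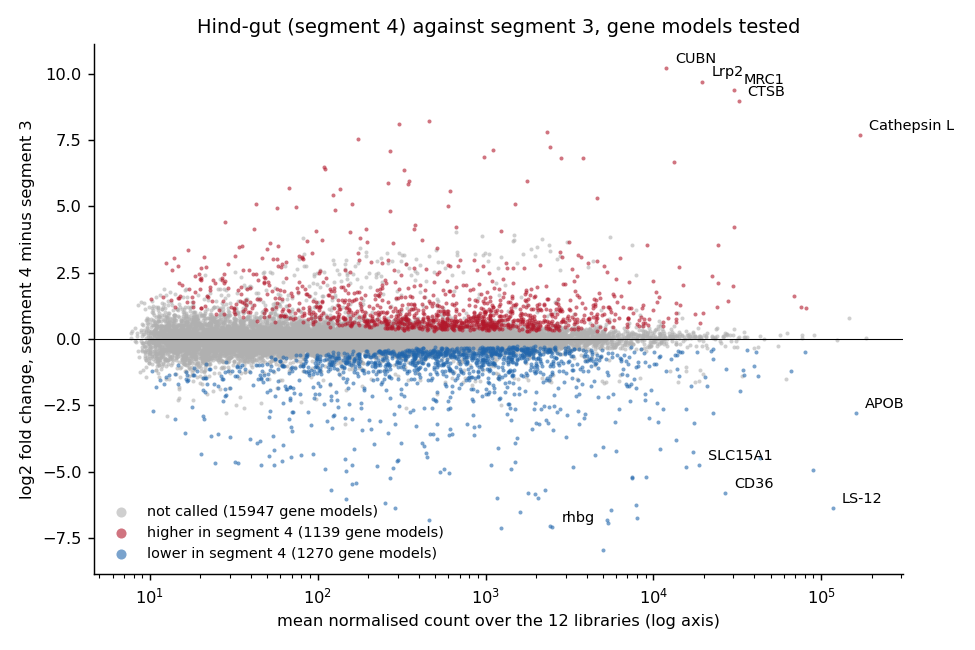
Log2 fold change of segment 4 minus segment 3 (vertical axis) against the mean normalised count over the 12 libraries (horizontal log axis), with 1 point for each of the 18356 gene models tested. The 1139 models higher in segment 4 are red and the 1270 lower ones blue, and the uptake receptors CUBN, Lrp2 and MRC1 and the proteases CTSB and Cathepsin L lie near the top.

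Read by abundance, the models that were higher took a median of 6.52% of all counts in segment 3 and 18.5% in segment 4, and those that were lower took 20.9% and 7.70%. In the segment 4 library of fish 2 the higher models took 11.1% and the lower ones 14.3%, outside the ranges of the other 5 fish (15.9% to 20.3% and 6.77% to 8.09%). These shares describe models that were called in the same libraries. APOB took the most reads of all models in segment 3 by its mean and Cathepsin L in segment 4, where reads also depend on the length of a model. Models under 10 in every library of one segment and at 10 or more in every library of the other pass the filter through the segment where they are high. There were 15 such models with segment 4 as the high side and 3 with segment 3 as the high side, and 24 and 35 without fish 2.

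Receptors for protein uptake were among the models with the largest increases, and CUBN had the largest fitted increase of all. CUBN (LABE_00025543), cubilin, a receptor that binds many proteins and the complex of vitamin B12 with its carrier, had normalised counts of 5.72 to 51.0 in segment 3 (median 19.3) and 8815 to 33648 in segment 4 (median 25085). No library of the segments overlapped, and the change was 10.21 (standard error 0.44, adjusted p = 8.11e-06) and 10.64 without fish 2. AMN (LABE_00003530), amnionless, which anchors cubilin in the membrane, had 15.3 to 41.9 in segment 3 (median 33.2) and 1931 to 6258 in segment 4 (median 5325). It was higher in every fish, with a change of 7.22 (standard error 0.30, adjusted p = 6.5e-06) and 7.57 without fish 2. Lrp2 (LABE_00002019), megalin, a large receptor of the low density lipoprotein receptor family that works beside cubilin in the kidney of mammals, had 16.2 to 102 in segment 3 (median 49.2) and 14715 to 52424 in segment 4 (median 41932). Its change was 9.70 (standard error 0.36, adjusted p = 3.94e-06) and 10.04 without fish 2. MRC1 (LABE_00048734), the macrophage mannose receptor, had 45.8 to 198 in segment 3 (median 78.2) and 17445 to 76104 in segment 4 (median 67029). Its change was 9.39 (standard error 0.39, adjusted p = 6.5e-06) and 9.77 without fish 2. In fish 2 the rise was there but smaller: its segment 4 library had 8815 for CUBN, 14715 for Lrp2 and 17445 for MRC1, while the other 5 lay at 22862 to 33648, 36140 to 52424 and 61307 to 76104. All 4 receptors were low in segments 1 and 2 too, where CUBN had medians of 21.8 and 26.1.

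**Figure D2:**
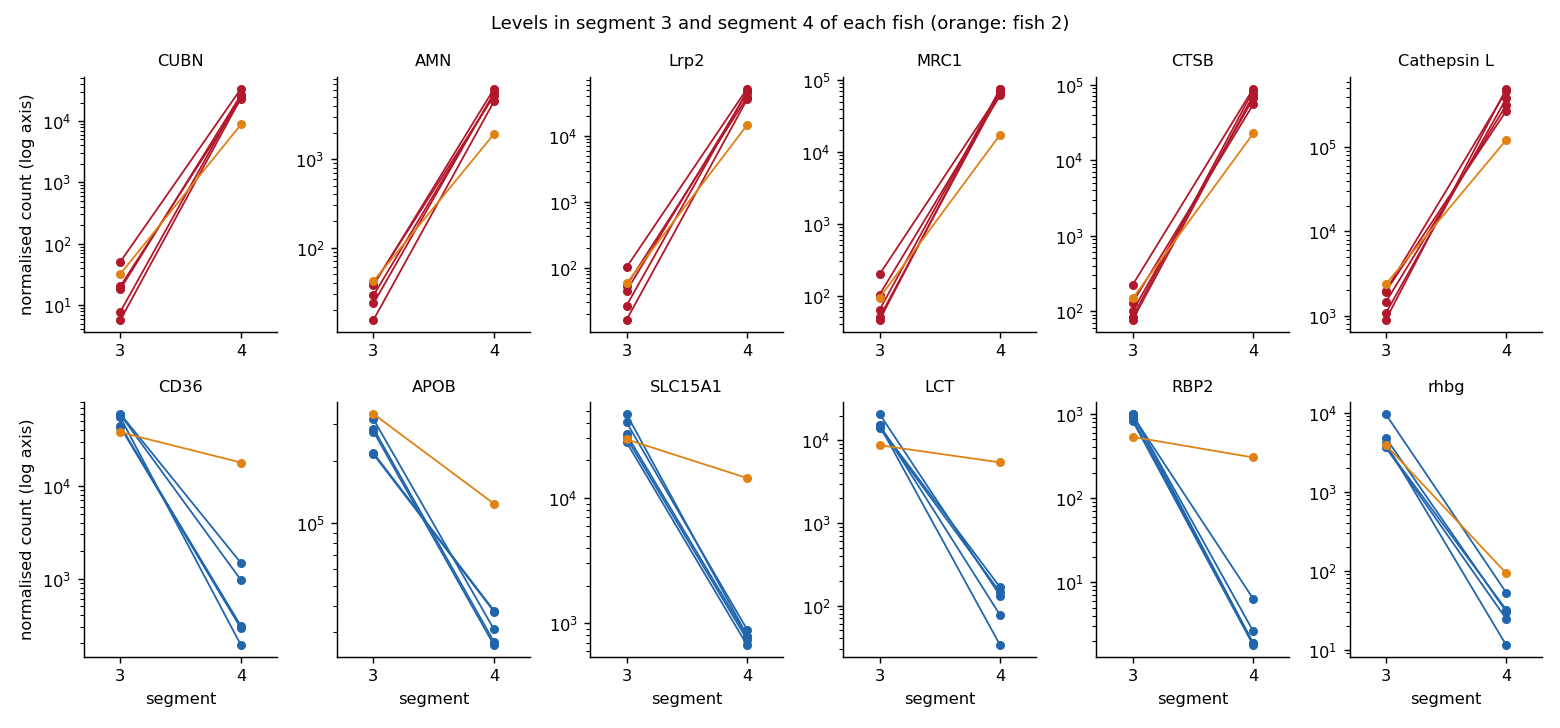
Normalised counts (log axis) of 12 gene models in segment 3 and segment 4, with 1 line per fish and fish 2 in orange. The upper row, CUBN, AMN, Lrp2, MRC1, CTSB and Cathepsin L, rose in all 6 fish. The lower row, CD36, APOB, SLC15A1, LCT, RBP2 and rhbg, fell in all 6, and except in rhbg the line of fish 2 ends well above the others.

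Part of the machinery that draws receptors into the cell was higher too. Of the 66 tested gene models of a list of uptake receptors and endocytic proteins (78 in the table), 17 were higher and 2 lower (20 higher and 3 lower without fish 2), against 6.21% and 6.92% of all models, and the median change of the list was 0.11 (0.13 without fish 2) where that of all models was -0.01. The summed counts of the list were 88334 to 98956 in segment 3 (median 94040.1) and 142544 to 303530 in segment 4 (median 277793), with 142544 in fish 2 and 264178 to 303530 in the other 5. DAB2 (LABE_00056671), the adaptor that links such receptors to clathrin, had 3013 to 4067 in segment 3 (median 3434) and 8012 to 21125 in segment 4 (median 17767). Its groups did not overlap, and it rose by 2.18 (adjusted p = 0.000149, 2.35 without fish 2). PLLP (LABE_00026549), plasmolipin, which zebrafish need for endosomes in the posterior gut, had 1259.8 to 1822 in segment 3 (median 1505) and 2349.6 to 5153 in segment 4 (median 4020) and rose by 1.31 (adjusted p = 0.00116, 1.48 without fish 2). Dnm2 (LABE_00031186), a dynamin that pinches vesicles from the membrane, went from a mean of 10212 ± 997 to 17265 ± 2734 (SD, n = 6) and rose by 0.75 (adjusted p = 0.00143, 0.80 without fish 2). The clathrin light chain CLTA rose by 1.14 (1.28 without fish 2), the heavy chain CLTC (LABE_00060996) by 0.74 (0.93 without fish 2), the motor protein MYO6 (LABE_00037853) by 0.75 (0.91 without fish 2), the transferrin receptor Tfrc (LABE_00063302) by 0.87 (1.08 without fish 2) and Lrpap1, a chaperone of megalin, by 1.88 (2.13 without fish 2). Other models of these names did not pass. They were the CLTC models LABE_00036148 and LABE_00037297 at -0.16 (-0.28 without fish 2) and -0.07 (-0.15 without fish 2), the MYO6 model LABE_00029908 at -0.24 (-0.32 without fish 2), a DNM2 model LABE_00030249 at -0.14 (-0.13 without fish 2) and the TFRC models LABE_00068712, LABE_00068711, LABE_00086311 and LABE_00051825, whose changes lay between -0.17 and 0.26 (-0.11 to 0.25 without fish 2). Epn1 (LABE_00041152), an epsin of clathrin-coated pits, and Ocrl, a phosphatase of endosomes, were the members that fell, with changes of -0.80 (-0.88 without fish 2) and -0.37 (-0.38 without fish 2). DAB2 and PLLP, like other genes said here to be chosen later, do not follow from the naming rule and were picked after their values had been seen, and the same holds for CLTA, CLTC, MYO6, Tfrc, Lrpap1, Epn1 and Ocrl.

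Proteins that sort cargo inside the cell were higher in part. Among 71 tested gene models for endosome sorting and fusion, 21 were higher and 3 lower (28 higher and 4 lower without fish 2), against 6.21% and 6.92% of all models, and the median was 0.17 (0.24 without fish 2). Summed counts of the list were 78539.8 to 97488 in segment 3 (median 83718) and 91702 to 122582 in segment 4 (median 111271), higher in segment 4 in 5 of 6 fish, and in fish 2 they went from 97488 to 91702. SNX1 (LABE_00005681), a sorting nexin that bends endosome membranes, had 2996 to 3553 in segment 3 (median 3205) and 4912 to 10312 in segment 4 (median 9431). Its groups were separate, and it rose by 1.40 (adjusted p = 0.000351, 1.54 without fish 2). Vps35 (LABE_00031375), the core of the retromer coat that returns receptors from endosomes, had 2816 to 3216 in segment 3 (median 2966) and 3265 to 4429 in segment 4 (median 4343) and rose by 0.45 (adjusted p = 0.0157, 0.53 without fish 2), with the 2 values of fish 2 almost equal (3216 and 3265). Rab5c (LABE_00013586), a small GTPase of early endosomes, had 2504 to 3439.6 in segment 3 (median 3106) and 3041 to 5048 in segment 4 (median 4108). The groups overlapped, and it rose by 0.39 (adjusted p = 0.0316, 0.45 without fish 2). The list also held genes with steeper changes, named after their values were seen. Rab32 (LABE_00006530), a GTPase of lysosome-related organelles in mammals, had 26.8 to 1128 in segment 3 (median 451) and 990.0 to 2898 in segment 4 (median 2173) and rose by 2.87 (adjusted p = 0.00544, 2.41 without fish 2), and its relative Rab38 LABE_00049382 rose by 4.39 (4.33 without fish 2) from a level near 0, whereas Rab38 LABE_00027982 did not pass, with -0.17 (-0.31 without fish 2). Core subunits of the tethers that fuse endosomes with lysosomes rose little, VPS33A by 0.60 (0.72 without fish 2), vps18 by 0.50 (0.55 without fish 2), VPS11 by 0.47 (0.54 without fish 2) and Vps16 by 0.37 (0.41 without fish 2). RAB11FIP1, an effector of recycling endosomes, changed by -1.42 (-1.52 without fish 2).

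Lysosomal enzymes gave the largest number of increases of the 19 lists. Of 71 tested gene models of lysosomal proteases and hydrolases (77 in the table), 36 (50.7%) were higher and 2 (2.82%) lower, against 6.21% and 6.92% of all models. Without fish 2 there were 41 higher and 4 lower, and without the block 29 higher and 1 lower. The models of the list had a median of 0.65 (0.75 without fish 2). Their summed counts were 151934 to 173531 in segment 3 (median 160480) and 239538 to 509299 in segment 4 (median 422514), with no overlap. Fish 2 had 239538 in segment 4 and the other fish 401463 to 509299. CTSB (LABE_00042575), cathepsin B, a cysteine protease, had 76.3 to 222 in segment 3 (median 115) and 22518 to 88297 in segment 4 (median 68802). That is a change of 8.96 (standard error 0.32, adjusted p = 3.94e-06) and 9.30 without fish 2. Cathepsin L (LABE_00033481), another cysteine protease, had 888 to 2352 in segment 3 (median 1682) and 122180 to 495610 in segment 4 (median 348250). It rose by 7.68 (standard error 0.38, adjusted p = 1.53e-05) and 8.08 without fish 2 and stood outside the list because of how its name is spelled in the table. Not every cathepsin followed. Among 19 models with a cathepsin symbol 8 were higher and none lower (10 and 2 without fish 2), whereas a second cathepsin L model, CTSL (LABE_00049861), had 1526 to 5431 in segment 3 (median 2794) and 2470 to 7148 in segment 4 (median 3561) with a change of 0.40 (0.62 without fish 2) and an adjusted p of 0.44. Ctsk (LABE_00057887), cathepsin K, had 2900.2 to 7756 in segment 3 (median 5495) and 4394 to 8076 in segment 4 (median 5347), a change of 0.11 (0.13 without fish 2) with an adjusted p of 0.572. Both were chosen after their values were seen.

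Enzymes that cut sugars and lipids inside lysosomes were among the higher models as well. MAN2B1 (LABE_00003060), the lysosomal alpha-mannosidase, had 1117 to 1471 in segment 3 (median 1248) and 5215 to 14468 in segment 4 (median 8624) and rose by 2.76 (adjusted p = 6.43e-05, 2.90 without fish 2). All its segment 4 libraries lay above all segment 3 libraries. PSAP (LABE_00061503), prosaposin, the precursor of the proteins that present sphingolipids to these enzymes, had 39151 to 52526 in segment 3 (median 43573) and 62826 to 136220 in segment 4 (median 108205) and rose by 1.22 (adjusted p = 0.0015, 1.33 without fish 2). GRN (LABE_00012046), progranulin, which is processed to granulins in lysosomes, had 2549.5 to 4569 in segment 3 (median 3704) and 16078 to 62515 in segment 4 (median 44472) and rose by 3.53 (adjusted p = 5.72e-05, 3.76 without fish 2). The beta-galactosidase GLB1 (LABE_00061948) rose by 2.19 (2.21 without fish 2), the sialidase NEU1 (LABE_00066599) by 1.87 (2.06 without fish 2), the acid sphingomyelinase SMPD1 by 1.81 (1.95 without fish 2) and the acid ceramidase Asah1 by 1.53 (1.77 without fish 2). The 2 members that fell were Hgsnat (LABE_00040066), an acetyltransferase of heparan sulphate breakdown, with -1.30 (-1.57 without fish 2), whose other models LABE_00039074 and LABE_00084719 did not pass (the latter was higher without fish 2), and a Gaa model (LABE_00002875), acid alpha-glucosidase, with -0.39 (-0.43 without fish 2). Of the 2 tested models named for Gaa, 1 was higher and 1 lower. MAN2B1, GLB1, NEU1, SMPD1, Asah1, Hgsnat and Gaa were named after their values were seen.

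The lysosomal membrane and the pump that acidifies it had the highest share of increases among the lists. Of 55 tested models 35 (63.6%) were higher and 1 (1.82%) lower (38 higher and 2 lower without fish 2), against 6.21% and 6.92% of all models. The models of the list had a median of 0.92 (1.01 without fish 2). Their summed counts were 89901 to 112506 in segment 3 (median 99699) and 126006 to 231362 in segment 4 (median 199256). The 2 ranges did not meet, though fish 2 had only 126006 in segment 4 against 189806 to 231362 in the others. Within this list were 27 models of subunits of the vacuolar proton pump, of which 19 were higher and none lower (20 and 1 without fish 2). ATP6V0C (LABE_00023559), the proteolipid of the membrane ring, had 6174 to 8349 in segment 3 (median 7724) and 10071 to 24757 in segment 4 (median 21358) and rose by 1.34 (adjusted p = 0.00219, 1.54 without fish 2). ATP6V0A2 (LABE_00038613), the membrane subunit a, had 2915 to 3899 in segment 3 (median 3176) and 4492 to 9417 in segment 4 (median 8073) and rose by 1.19 (adjusted p = 0.00247, 1.38 without fish 2). LAMP2 (LABE_00038850), a main glycoprotein of the lysosomal membrane, had 11884 to 17046 in segment 3 (median 14208) and 20496 to 42652 in segment 4 (median 34788) and rose by 1.20 (adjusted p = 0.0025, 1.38 without fish 2). For all 3 the groups were separate but the fish 2 pair differed least. Tfeb (LABE_00017178), a transcription factor that in mammals switches on lysosomal genes, had 878 to 1324 in segment 3 (median 975) and 3268 to 10946 in segment 4 (median 8848) and rose by 2.92 (standard error 0.20, adjusted p = 8.12e-05) and 3.15 without fish 2. Transporters of the same membrane rose with them, among those picked afterwards the cystine exporter CTNS by 1.66 (1.89 without fish 2), the sterol exporter NPC1 by 1.20 (1.32 without fish 2) and the chloride exchanger Clcn7 by 1.12 (1.23 without fish 2). A protein of this membrane outside the list went the other way. SIDT2 (LABE_00036988), a lysosomal membrane protein in mammals, had 112890 to 233660 in segment 3 (median 159745) and 2388 to 61896 in segment 4 (median 3488), without overlap, and changed by -4.95 (standard error 0.51, adjusted p = 0.00059) and -5.59 without fish 2.

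**Figure D3:**
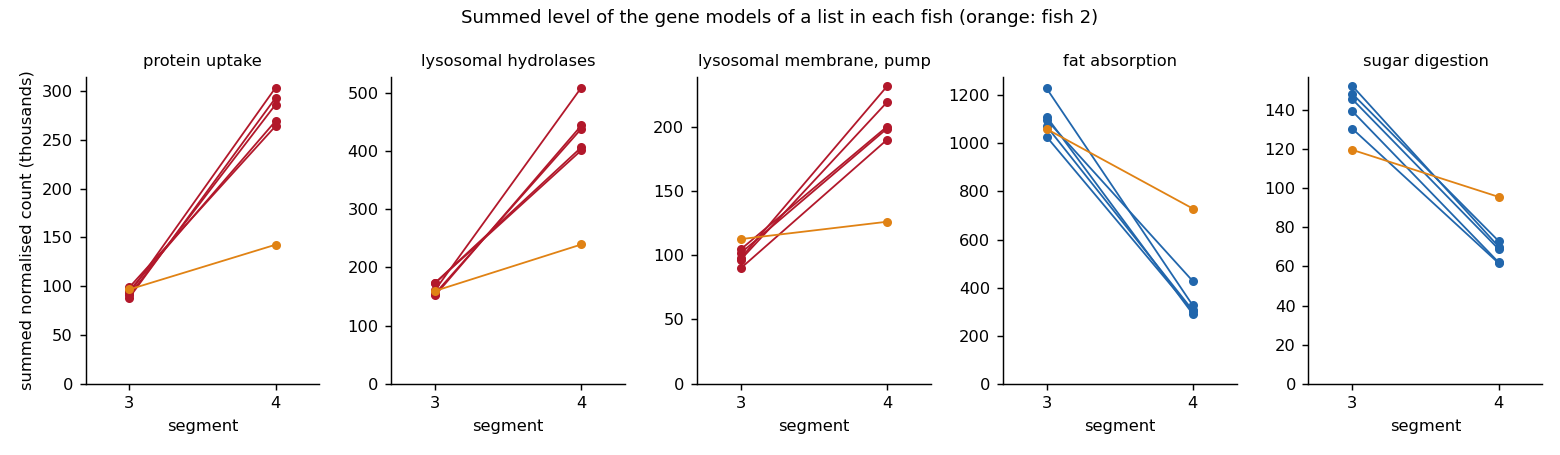
Summed normalised counts (divided by 1000, axes from 0) of the gene models of 5 lists in segment 3 and segment 4 of each fish, with fish 2 in orange. The 3 lists of protein uptake, lysosomal hydrolases and lysosomal membrane rose in all 6 fish, and those of fat absorption and sugar digestion fell in all 6, and the segment 4 point of fish 2 lies nearest to segment 3 in each.

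Other models with steep rises were named by the rule. P2rx5 (LABE_00047336), a cation channel opened by ATP, had 7.51 to 33.4 in segment 3 (median 18.9) and 1418 to 6391 in segment 4 (median 4862) and rose by 7.78 (standard error 0.14, adjusted p = 3.99e-08) and 7.86 without fish 2. Of the 2 tested models of this name, 1 was higher and 1 lower. The 2 models named SH3TC1 (LABE_00045973 and LABE_00070741) were near 0 in segment 3 and had 252 to 1534 and 218 to 758 in segment 4, changes of 8.22 (8.47 without fish 2) and 8.09 (8.15 without fish 2). The epd model LABE_00039237, an ependymin, a secreted glycoprotein first known from fish brain, had 1974 to 3687 in segment 3 (median 3189.6) and 27975 to 82985 in segment 4 (median 55723) and rose by 4.21 (standard error 0.27, adjusted p = 6.48e-05) and 4.46 without fish 2.

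Fat absorption was the list with the largest share of falls. Of 99 tested gene models (117 in the table), 2 (2.02%) were higher and 46 (46.5%) lower (3 higher and 48 lower without fish 2), against 6.21% and 6.92% of all models. The median change of the list was -0.58 (-0.79 without fish 2). Summed counts of the list were 1027300 to 1228320 in segment 3 (median 1084520) and 290015 to 728567 in segment 4 (median 315186). All 6 fish fell, and fish 2 kept 728567 where the other 5 had 290015 to 426734. These sums include Fabp6, the ileal bile acid binding protein, with means of 135535 and 155895 in segments 3 and 4. Its change did not pass. CD36 (LABE_00046348), a fatty acid receptor of the brush border, had 38073 to 60034 in segment 3 (median 49868) and 191 to 17942 in segment 4 (median 635). Its change was -5.82 (standard error 0.79, adjusted p = 0.00183) and -6.77 without fish 2. FABP2 (LABE_00036062), the intestinal fatty acid binding protein, had 38873 to 56548 in segment 3 (median 51757) and 7548 to 36009 in segment 4 (median 11190) and changed by -1.95 (adjusted p = 0.00172, -2.21 without fish 2). APOB (LABE_00031499), the backbone of lipoproteins, had 215670 to 337110 in segment 3 (median 282085) and 25767 to 124210 in segment 4 (median 34062) and changed by -2.79 (standard error 0.27, adjusted p = 0.000457) and -3.06 without fish 2. The apoeb models LABE_00047833 and LABE_00047834, apolipoproteins E, changed by -4.48 (adjusted p = 0.00179, -5.13 without fish 2) and -1.38 (adjusted p = 0.0072, -1.41 without fish 2). In the first of them segment 4 held 711 to 36890 and segment 3 held 57915 to 89186. Genes on the way between uptake and export fell too, with changes for Acsl5, which activates fatty acids, of -3.80 (-4.48 without fish 2), dgat2 (LABE_00011417), which makes triglyceride, of -2.42 (-2.83 without fish 2), and for MTTP, which loads it onto APOB, of -1.37 (-1.39 without fish 2). Npc1l1 (LABE_00014401), the sterol importer, had 16925 to 49646 in segment 3 (median 27804) and 703 to 17339 in segment 4 (median 934) and changed by -4.24 (adjusted p = 0.00353, -5.08 without fish 2), with the 2 values of fish 2 close to each other (18073 and 17339). These 4 were named after their values were seen. The 2 members that were higher were hnf4a (LABE_00011070), a nuclear receptor of the gut and liver, by 0.49 (0.46 without fish 2), whose model LABE_00047716 did not pass except as lower without fish 2, with -0.54 (-0.79 without fish 2), and Pctp, a phosphatidylcholine carrier, by 0.49 (0.46 without fish 2), of which Pctp did not pass without fish 2, and both were chosen after their values were seen.

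Enzymes that cut dietary phospholipids and sphingomyelin outside the cell were among the models with the steepest falls. PLB1 (LABE_00006850), a phospholipase B, had 5961 to 15387 in segment 3 (median 9423) and 11.4 to 5158 in segment 4 (median 45.7) and changed by -6.83 (standard error 0.92, adjusted p = 0.0018) and -7.98 without fish 2. The segment 4 library of fish 2 held 5158 of it, and the range in the other fish was 11.4 to 69.2. ENPP7, the alkaline sphingomyelinase, has several models in the table. LABE_00049716 had 1267 to 2789 in segment 3 (median 2531) and 4.55 to 997 in segment 4 (median 6.35) and changed by -7.14 (adjusted p = 0.00259, -8.50 without fish 2), and LABE_00030517 had 2059 to 5922 in segment 3 (median 4749) and 2.84 to 1903 in segment 4 (median 19.7) and changed by -7.05 (adjusted p = 0.00367, -8.43 without fish 2). In fish 2 both hardly moved, at 1267 and 997 for the first and 2059 and 1903 for the other. Similar copies can share reads, so that the levels of single models are uncertain. CERS2 (LABE_00035489), a ceramide synthase, had 1914 to 3604 in segment 3 (median 3140.4) and 11.3 to 1449 in segment 4 (median 14.3) and changed by -6.53 (adjusted p = 0.00244, -7.75 without fish 2). Markers of enterocytes at large moved both ways. Of 7 tested 1 was higher and 3 lower (1 higher and 3 lower without fish 2), against 6.21% and 6.92% of all models, with a median of -0.29 (-0.18 without fish 2). Their summed counts were 114342 to 152186 in segment 3 (median 124320) and 97791 to 113572 in segment 4 (median 107114), VIL1, villin of the microvilli, chosen after its values were seen, changed by -0.68 (-0.71 without fish 2) and CDH17 (LABE_00050891), an intestinal cadherin, by -0.42 (adjusted p = 0.0373, -0.42 without fish 2). CDX1 LABE_00045324 changed by -0.44 (-0.45 without fish 2) and CDX1 LABE_00038637 by 0.96 (1.13 without fish 2), and Epcam, an adhesion molecule of epithelia, did not pass, with 0.28 (0.32 without fish 2). Epcam and the CDX1 model LABE_00045324 were chosen after their values were seen. The part of these markers in the fall of the fat genes was not tested.

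Protein digestion at the brush border fell in part. Of 73 models of peptidases and amino acid transporters, 5 were higher and 19 lower (8 higher and 25 lower without fish 2). Among all models 6.21% were higher and 6.92% lower (8.78% and 9.39% without fish 2). With all 6 fish, the share of higher models in the list was near that of all models. The median change of the list was -0.17 (-0.21 without fish 2). Steep falls included those of peptide uptake. SLC15A1 (LABE_00037938), the transporter that brings di- and tripeptides into enterocytes, had 27986 to 46947 in segment 3 (median 31332) and 667 to 14451 in segment 4 (median 789.5) and changed by -4.75 (standard error 0.57, adjusted p = 0.00111) and -5.50 without fish 2. A further copy, Slc15a1 (LABE_00017465), had 4238 to 15131 in segment 3 (median 10982) and 42.6 to 2650.3 in segment 4 (median 64) and changed by -6.44 (standard error 0.89, adjusted p = 0.00197) and -7.60 without fish 2. The copy LABE_00049604 behaved otherwise, with 1928 to 7962 in segment 3 (median 3546) and 4572 to 8714 in segment 4 (median 6332), overlapping groups and a change of 0.69 (adjusted p = 0.0699, 0.56 without fish 2) that did not pass. In segments 1 and 2 that copy was low, with medians of 67.9 and 190.1. The peptidases ANPEP, Dpp4 and TMPRSS15 changed less. Models of meprin beta and Slc6a19, also members of this list, are given below among names that moved both ways. ANPEP (LABE_00049656), aminopeptidase N, had 71288 to 105690 in segment 3 (median 95968) and 53349 to 77691 in segment 4 (median 68914) and changed by -0.48 (adjusted p = 0.0347, -0.51 without fish 2), with overlap. Dpp4 (LABE_00037945), dipeptidyl peptidase, had 26239 to 30636 in segment 3 (median 28650.5) and 14218 to 20321 in segment 4 (median 17368) without overlap and changed by -0.74 (adjusted p = 0.00465, -0.81 without fish 2). TMPRSS15 (LABE_00076274), enteropeptidase, which in mammals activates trypsinogen, was low in both, with 30.6 to 343 in segment 3 (median 70.3) and 6.13 to 81.3 in segment 4 (median 10.9), and changed by -2.23 (adjusted p = 0.0458, -2.67 without fish 2). Its 2 values in fish 2 were 81.6 and 81.3. Members that rose and were picked afterwards included SLC1A1, a glutamate transporter, by 1.26 (1.19 without fish 2), and Ggt1 (LABE_00008724), gamma-glutamyltransferase, by 1.15 (1.36 without fish 2).

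Sugar digestion fell with it. Of 55 models 7 (12.7%) were higher and 13 (23.6%) lower (10 higher and 18 lower without fish 2), against 6.21% and 6.92% of all models. The median change of the list was -0.14 (-0.12 without fish 2). Its summed counts were 119547 to 152191 in segment 3 (median 142358) and 61673 to 95532 in segment 4 (median 69488). LCT (LABE_00037610), named for lactase, had 8752 to 20917 in segment 3 (median 14938) and 33.1 to 5416 in segment 4 (median 138) and changed by -6.25 (standard error 0.89, adjusted p = 0.00229) and -7.36 without fish 2. MGAM (LABE_00035077), maltase-glucoamylase, had 16382 to 41597 in segment 3 (median 31002) and 1486 to 11866 in segment 4 (median 2604) and changed by -3.17 (standard error 0.44, adjusted p = 0.00196) and -3.71 without fish 2. SLC5A1 (LABE_00008799), the sodium-driven glucose transporter, had 10862 to 16538 in segment 3 (median 13516) and 4809 to 9123 in segment 4 (median 7135) with no overlap and changed by -0.95 (adjusted p = 0.000421, -0.96 without fish 2). SLC2A2 (LABE_00056977), the facilitative glucose transporter of the basal side, had 145 to 764 in segment 3 (median 589) and 7.01 to 135 in segment 4 (median 15.6) and changed by -4.59 (adjusted p = 0.0037, -5.49 without fish 2). Enzymes of glucose output moved the same way, PCK1 by -5.99 (-7.47 without fish 2) (LABE_00058022) and -0.54 (-0.54 without fish 2) (LABE_00025597), and G6PC by -4.19 (-5.10 without fish 2). GALK1 and GALT, enzymes of galactose breakdown, were higher by 0.52 (0.54 without fish 2) and 0.95 (0.99 without fish 2). Steeper rises were those of Slc2a8, by 2.29 (2.29 without fish 2), and of SLC2A9 LABE_00014551 and LABE_00082595. These SLC2A9 models rose by 4.96 (5.46 without fish 2) and 4.92 (4.83 without fish 2) from low means of 2.71 and 5.02. SLC2A9 LABE_00043443 fell, with -0.65 (-0.81 without fish 2), and LABE_00024809 and LABE_00043444 did not pass, with -0.57 (-0.38 without fish 2) and -0.51 (-0.68 without fish 2). SLC2A2, PCK1, G6PC, the galactose genes, Slc2a8 and SLC2A9 were named after their values were seen.

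The genes of bile salt recovery, which in mammals mark the ileum, were high on both sides. Fabp6 (LABE_00051334), the ileal bile acid binding protein, had 5135 to 218720 in segment 3 (median 146725) and 109360 to 207280 in segment 4 (median 142740), overlapping groups, and a change of 0.79 (adjusted p = 0.519, -0.12 without fish 2) that did not pass. The lowest value of segment 3 was that of fish 2. SLC10A2 (LABE_00014762), the sodium-driven bile salt importer, had 1768 to 23351 in segment 3 (median 9098) and 10923 to 25100 in segment 4 (median 15533) and a change of 0.98 (adjusted p = 0.217, 0.48 without fish 2). Both had far lower medians in segments 1 and 2, where Fabp6 had medians of 292 and 251. The exporter subunit slc51b (LABE_00049906) had 3624 to 14877 in segment 3 (median 12864) and 5394 to 16687 in segment 4 (median 10225) and a change of 0.18 (adjusted p = 0.553, 0.10 without fish 2). These 3 were chosen after their values were seen. Of 24 models in the list, 3 (12.5%) were higher and 3 (12.5%) lower (7 higher and 5 lower without fish 2), against 6.21% and 6.92% of all models. Slco2b1 (LABE_00054902), an organic anion importer, had 1551 to 2784 in segment 3 (median 2320.3) and 2306 to 4118 in segment 4 (median 3229) and changed by 0.50 (adjusted p = 0.0168, 0.58 without fish 2). Abcg2 (LABE_00027676), an exporter of drugs and sterol conjugates, had 2184 to 4886 in segment 3 (median 2816) and 909.9 to 1746 in segment 4 (median 1123), without overlap, and changed by -1.33 (adjusted p = 0.00202, -1.53 without fish 2). CYP7A1 (LABE_00000787), which in mammals sets the pace of bile acid synthesis in liver, had 569 to 13138 in segment 3 (median 2573) and 6.62 to 911 in segment 4 (median 34.4) and changed by -5.68 (adjusted p = 0.00815, -6.95 without fish 2), and in fish 2 it was higher in segment 4 (911) than in segment 3 (569). Other models of these 2 names, chosen after their values were seen, did not pass. ABCG2 LABE_00065523, with means of 3894 and 4635 in segments 3 and 4, changed by 0.27 (0.21 without fish 2). Cyp7a1 LABE_00079848, with low means of 24.6 and 31.2, changed by 0.37 (0.41 without fish 2).

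Salt and water genes moved both ways. Of 58 models 5 (8.62%) were higher and 11 (19.0%) lower (8 higher and 14 lower without fish 2), against 6.21% and 6.92% of all models. The median change of the list was -0.10 (-0.05 without fish 2). Slc26a6 (LABE_00040824), an anion exchanger through which marine fish secrete bicarbonate into the gut, had 3186 to 7707 in segment 3 (median 3894) and 218 to 1627 in segment 4 (median 333) and changed by -3.45 (standard error 0.22, adjusted p = 5.72e-05) and -3.69 without fish 2. A second Slc26a6 model, LABE_00047488, had means of 1257 and 1600 in segments 3 and 4. Its change of 0.36 (adjusted p = 0.21, 0.32 without fish 2) did not pass. Slc26a3 (LABE_00041982), another exchanger of chloride and bicarbonate, rose, with 96.3 to 463 in segment 3 (median 174) and 309 to 572 in segment 4 (median 397) and a change of 1.12 (adjusted p = 0.0126, 1.10 without fish 2). Slc34a2 (LABE_00001002), a sodium-driven phosphate importer, had 11829 to 30971 in segment 3 (median 15932) and 422 to 16302 in segment 4 (median 1743) and changed by -3.11 (adjusted p = 0.00282, -3.55 without fish 2), and its copy LABE_00065592 changed by -4.74 (adjusted p = 0.000389, -4.72 without fish 2). Slc9a3r1 (LABE_00002303), a scaffold of brush border transporters, had 4502 to 6734 in segment 3 (median 6096) and 3307 to 4397 in segment 4 (median 3701) and changed by -0.64 (adjusted p = 0.0106, -0.76 without fish 2). AQP1 (LABE_00056950), a water channel, was low in segment 3 and rose, with 20.4 to 77.7 in segment 3 (median 37.0) and 226 to 814 in segment 4 (median 472) and a change of 3.60 (standard error 0.24, adjusted p = 7.39e-05) and 3.64 without fish 2. The 3 calcium-sensing receptor models named here (CASR) fell together, with changes of -4.15 (-4.95 without fish 2), -4.33 (-5.19 without fish 2) and -4.64 (-5.69 without fish 2), and in fish 2 their levels hardly differed between the segments. A further tested model, Casr LABE_00004704, lay in the other direction and did not pass, with 0.91 (adjusted p = 0.215, 0.68 without fish 2). Of the models named GUCA2A, guanylin, a gut peptide, the abundant LABE_00035120 had means of 16490.5 and 16843 in segments 3 and 4 and a change of 0.04 (adjusted p = 0.908, -0.14 without fish 2) that did not pass, whereas LABE_00009500, with means of 475 and 95.0, changed by -2.83 (adjusted p = 0.0127, -3.47 without fish 2). Of the models of its receptor GUCY2C, LABE_00064364 changed by -1.16 (adjusted p = 0.000585, -1.26 without fish 2), and LABE_00037727 and LABE_00080098 did not pass, with -0.07 (-0.07 without fish 2) and -0.83 (-0.79 without fish 2). rhbg (LABE_00033114), an ammonia channel, was abundant in segments 1 to 3 and nearly absent from the hind-gut, with 3654 to 9615 in segment 3 (median 4001) and 11.4 to 92.4 in segment 4 (median 31.0). It changed by -7.08 (standard error 0.32, adjusted p = 8.74e-06) and -7.42 without fish 2, and here fish 2 was with the others at 92.4. The second Slc26a6 model, Slc26a3, the copy of Slc34a2, AQP1, CASR, GUCA2A and GUCY2C were named after their values were seen.

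Metal and vitamin genes moved both ways. Of 61 models 14 (23.0%) were higher and 16 (26.2%) lower (15 higher and 17 lower without fish 2), against 6.21% and 6.92% of all models. The higher ones included CUBN and AMN, which serve vitamin B12 uptake. Further B12 genes rose and were named after their values were seen: TCN2 (LABE_00059456), a B12 carrier protein, had 921 to 1525 in segment 3 (median 1203) and 1806 to 4879 in segment 4 (median 3659) and changed by 1.49 (adjusted p = 0.00105, 1.59 without fish 2), Abcd4, a lysosomal B12 transporter, changed by 0.93 (1.05 without fish 2), and mmachc and Mmadhc, which handle B12 inside the cell, by 0.66 (0.83 without fish 2) and 0.45 (0.54 without fish 2) (LABE_00016800). A Mmadhc model LABE_00074214 did not pass, with 0.05 (0.0 without fish 2). A model that the table calls Vtcn1, a checkpoint ligand of T cells in mammals, is given as a transcobalamin in the text of the study. That model (LABE_00042844) had 390.1 to 968 in segment 3 (median 682) and 44.5 to 512 in segment 4 (median 97.0) and changed by -2.61 (adjusted p = 0.00309, -2.94 without fish 2), the opposite direction to TCN2 LABE_00059456. A model without a name in the table is given there as transcobalamin-like. It (LABE_00037777) varied widely in both segments, with 529 to 5658 in segment 3 (median 1651) and 6.38 to 3462 in segment 4 (median 1047) and a change of -1.55 (adjusted p = 0.446, -2.29 without fish 2) that did not pass. Mthfd1 (LABE_00008887), a folate enzyme, had 3464 to 8228 in segment 3 (median 7209.9) and 6391 to 12903 in segment 4 (median 10854) and rose by 0.61 (adjusted p = 0.0035, 0.56 without fish 2). Of the other folate and serine enzymes, picked afterwards, SHMT1 rose by 0.63 (0.77 without fish 2) and the SHMT2 models LABE_00024564 and LABE_00021938 changed by -2.15 (-2.52 without fish 2) and -0.95 (-0.96 without fish 2). GGH, a hydrolase of folate polyglutamates, had LABE_00038459 lower at -0.61 (-0.74 without fish 2), and LABE_00009710 and LABE_00060036 did not pass, with 0.85 (1.12 without fish 2) and 0.49 (0.42 without fish 2), the former of which passed without fish 2. Copper pumps rose, ATP7B by 1.45 (1.48 without fish 2) and ATP7A (LABE_00016959) by 1.28 (1.31 without fish 2), and the Atp7a model LABE_00040732 did not pass, with 0.17 (0.17 without fish 2), while the copper importer SLC31A1 fell, with changes of -1.0 (-1.08 without fish 2) and -1.04 (-1.09 without fish 2) in its 2 models. The zinc importers Slc39a4 and Slc39a14 (LABE_00077910) changed by -1.66 (-1.90 without fish 2) and -4.91 (-5.49 without fish 2), and the iron importer Slc11a2 (LABE_00033135) by -0.68 (-0.71 without fish 2). The models SLC39A14 LABE_00029996 and Slc11a2 LABE_00047751 did not pass, with -0.21 (-0.26 without fish 2) and -0.01 (0.08 without fish 2). The copper, zinc and iron genes were also named afterwards. Retinoid genes moved both ways. RBP2 (LABE_00037091), the retinol binding protein of enterocytes, had 533 to 998 in segment 3 (median 921) and 1.79 to 304 in segment 4 (median 2.26) and changed by -6.81 (standard error 0.94, adjusted p = 0.00195) and -8.0 without fish 2, and the RBP2 models LABE_00022202 and LABE_00093456, chosen after their values were seen, changed by -4.23 (-4.97 without fish 2) and -5.07 (-5.93 without fish 2). BCO1 (LABE_00031873), which splits beta-carotene, had 10504 to 39012 in segment 3 (median 19261) and 566 to 6762 in segment 4 (median 695) and changed by -4.16 (standard error 0.53, adjusted p = 0.00143) and -4.81 without fish 2, while a second BCO1 model, LABE_00069314, rose by 1.37 (adjusted p = 0.000187, 1.44 without fish 2). LRAT, which esterifies retinol, was called in 1 low model, LABE_00087206, at 0.82 (adjusted p = 0.0495, 0.85 without fish 2), which no longer passed without fish 2 (adjusted p = 0.0612). The LRAT model LABE_00027588 did not pass, with -0.72 (-0.77 without fish 2). The latter BCO1 model and LRAT were chosen after their values were seen.

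Transcription factors that set position along the gut moved both ways, as did the HOX genes. hoxc13a (LABE_00018825) had 0 to 13.2 in segment 3 (median 2.38) and 81.3 to 735 in segment 4 (median 599) and rose by 7.07 (standard error 0.35, adjusted p = 1.53e-05) and 7.21 without fish 2. hoxa13a (LABE_00032184) was already present in segment 3, with 46.1 to 917 in segment 3 (median 486) and 1299.5 to 2715 in segment 4 (median 2312), and rose by 2.66 (adjusted p = 0.00225, 2.23 without fish 2), and its lowest segment 3 value was that of fish 2. Of 22 HOX models tested 5 (22.7%) were higher and 2 (9.09%) lower (5 and 4 without fish 2), against 6.21% and 6.92% of all models. The higher ones also held hoxd4b (LABE_00039276), an anterior group member, with 0 to 9.66 in segment 3 (median 1.04) and 110.2 to 304 in segment 4 (median 232) and a change of 6.49 (adjusted p = 0.000283, 7.12 without fish 2), and the lower ones were hoxc8a and hoxb6a, which changed by -1.40 (-1.59 without fish 2) (LABE_00018820) and -1.70 (-2.02 without fish 2). The remaining higher ones, also of posterior groups, were hoxc10a (LABE_00018822) and hoxa10b (LABE_00023300). They rose by 2.86 (adjusted p = 0.00251, 2.59 without fish 2) and 1.80 (adjusted p = 0.0171, 1.91 without fish 2). The level of hoxc10a was low, with means of 2.48 and 22.3 in segments 3 and 4. Other models of posterior groups, hoxc9, hoxd10a, hoxa9 and hoxa10, did not pass, with 0.02 (-0.37 without fish 2), 0.59 (0.08 without fish 2), 0.81 (0.41 without fish 2) and 0.82 (0.42 without fish 2). Over the whole list of 57 transcription factors, 12 (21.1%) were higher and 12 (21.1%) lower (12 higher and 16 lower without fish 2). The endoderm GATA factors fell: gata6-a (LABE_00019064) had 3167 to 6144 in segment 3 (median 4477) and 1332 to 2861 in segment 4 (median 1555) and changed by -1.47 (adjusted p = 0.00336, -1.74 without fish 2), gata5-a (LABE_00093060) had 1301 to 3349 in segment 3 (median 1843) and 23.8 to 882 in segment 4 (median 47.5) and changed by -4.75 (adjusted p = 0.0018, -5.51 without fish 2), and gata4 (LABE_00042570) changed by -4.0 (adjusted p = 0.000508, -4.09 without fish 2). PITX1 (LABE_00019541), a homeobox factor, had 248 to 742 in segment 3 (median 471) and 3.14 to 301 in segment 4 (median 5.36) and changed by -5.25 (adjusted p = 0.00506, -6.36 without fish 2), but in fish 2 it was 250.0 and 301. foxd2 (LABE_00042887), a forkhead factor, went the other way, with 6.44 to 161 in segment 3 (median 30.2) and 431 to 1400.2 in segment 4 (median 1232) and a change of 5.02 (standard error 0.40, adjusted p = 0.000187) and 4.86 without fish 2. CDX1 (LABE_00038637), an intestinal homeobox factor, had 2360.1 to 4907 in segment 3 (median 2897) and 3044 to 7241 in segment 4 (median 6631) and rose by 0.96 (adjusted p = 0.00796, 1.13 without fish 2). hoxa13a, hoxd4b, hoxc10a, hoxa10b, hoxc8a, hoxb6a, the 4 HOX genes that did not pass, gata5-a, gata4, PITX1 and foxd2 were named after their values were seen.

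Cell division genes that passed the paired fit were mostly higher. Of 96 models of DNA replication and mitosis 12 were higher and 3 lower (15 higher and 3 lower without fish 2), against 6.21% and 6.92% of all models. With no replicate block 2 were higher and 3 lower, against 4.75% and 5.06% of all models in that fit. In the paired fit 85 estimates lay above 0 with a median of 0.31 (0.32 without fish 2). The summed counts were 44051 to 57021 in segment 3 (median 47174) and 42921 to 112039 in segment 4 (median 57847). They were higher in segment 4 in 5 of 6 fish, but unevenly. Fish 1 went from 45796 to 90329 and fish 5 from 48493 to 112039, while fish 6 went from 47704 to 51363 and fish 2 from 44051 to 42921. smc4 (LABE_00020742), a condensin subunit, had 1264 to 2356 in segment 3 (median 1755) and 1650.3 to 2735 in segment 4 (median 2233) and rose by 0.32 (adjusted p = 0.0409, 0.31 without fish 2), which no longer passed without fish 2 (adjusted p = 0.0511). TOP2A (LABE_00049941), a topoisomerase of dividing cells, had 4333 to 5251 in segment 3 (median 4886) and 2837 to 3979.8 in segment 4 (median 3722) and changed by -0.42 (adjusted p = 0.00785, -0.39 without fish 2), against the direction of the list. pcna (LABE_00042675), the sliding clamp of replication, chosen afterwards, had 2362 to 3574 in segment 3 (median 3161) and 2371 to 4484 in segment 4 (median 3379.7) and a change of 0.15 (adjusted p = 0.324, 0.18 without fish 2) that did not pass.

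Lists of energy and lipid metabolism inside the cell differed in their share of calls. Sterol synthesis had a median of -1.01 (-1.36 without fish 2) over 29 models. In it 0 were higher and 4 (13.8%) lower, against 6.21% and 6.92% of all models. Without fish 2, 0 were higher and 14 lower, against 8.78% and 9.39% of all models. dhcr7 (LABE_00056726) and Sc5d (LABE_00057134), late enzymes of cholesterol synthesis, had 1849 to 7319.8 in segment 3 (median 3382) and 307 to 2795 in segment 4 (median 517) and 1820.1 to 9212 in segment 3 (median 3044) and 380.1 to 3161 in segment 4 (median 434). They changed by -2.58 (adjusted p = 0.00853, -3.13 without fish 2) and -2.54 (adjusted p = 0.0222, -3.20 without fish 2), and in fish 2 both were higher in segment 4 than in segment 3. SREBF1 (LABE_00020937), a transcription factor of lipid synthesis, had 2875 to 4844 in segment 3 (median 3358) and 1534 to 2272 in segment 4 (median 1799) and changed by -0.97 (adjusted p = 0.00196, -1.07 without fish 2). For fatty acid oxidation and peroxisomes, 3 (4.29%) were higher and 9 (12.9%) lower of 70 (5 higher and 10 lower without fish 2). cat (LABE_00005762), catalase, changed by -1.03 (adjusted p = 0.00879, -1.25 without fish 2), Abcd3 (LABE_00025460), a peroxisomal fatty acid importer, by -0.83 (adjusted p = 0.011, -1.02 without fish 2), and SCP2 (LABE_00004104), a peroxisomal thiolase and sterol carrier, by -0.95 (adjusted p = 0.00183, -1.06 without fish 2). In the citrate cycle and respiratory chain 3 (3.53%) were higher and 5 (5.88%) lower of 85 (10 higher and 7 lower without fish 2). IDH2 (LABE_00056130), mitochondrial isocitrate dehydrogenase, rose by 0.79 (adjusted p = 0.000844, 0.87 without fish 2) and COX5A (LABE_00065736), a subunit of cytochrome oxidase, by 0.64 (adjusted p = 0.00863, 0.68 without fish 2), while ACO1 (LABE_00035587), the cytosolic aconitase, changed by -0.43 (adjusted p = 0.0151, -0.49 without fish 2). Of 76 cytosolic ribosomal protein models none passed in either direction with or without fish 2, and 74 estimates lay above 0 with a median of 0.10 (0.06 without fish 2).

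Detoxification enzymes were called often and mostly fell. Of 67 models of cytochrome P450 and conjugation 11 (16.4%) were higher and 30 (44.8%) lower (11 higher and 34 lower without fish 2), against 6.21% and 6.92% of all models. The median change of the list was -0.37 (-0.45 without fish 2). Within the CYP3A family, which oxidises drugs and steroids, copies went opposite ways. cyp3a40 LABE_00027666 had 6270.4 to 13371 in segment 3 (median 8343) and 15269 to 63069 in segment 4 (median 40888) and rose by 2.12 (standard error 0.23, adjusted p = 0.000752) and 2.29 without fish 2. cyp3a40 LABE_00047508 had 12214 to 18169 in segment 3 (median 14459.5) and 2986 to 9088 in segment 4 (median 3389) and changed by -1.91 (standard error 0.24, adjusted p = 0.00139) and -2.18 without fish 2. Both had separate groups. Among the 41 calls of the list were several models named for the CYP2J family, such as Cyp2j6 LABE_00054166, which changed by -4.11 (-4.70 without fish 2), and CYP2J2 LABE_00047473, which had 137 to 219.9 in segment 3 (median 162) and 7.16 to 114 in segment 4 (median 36.8) and changed by -2.47 (adjusted p = 0.0242, -2.83 without fish 2). Mgst3 (LABE_00004137), a membrane-bound glutathione transferase, had 9861 to 17745 in segment 3 (median 13060) and 5632 to 8309 in segment 4 (median 6706) and changed by -0.92 (adjusted p = 0.00352, -0.93 without fish 2). A sulfotransferase, sult1st3 LABE_00080073, rose by 2.06 (2.21 without fish 2). The CYP2J models and sult1st3 were named after their values were seen.

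The apical surface and its junctions changed in single genes. Of 61 models 4 (6.56%) were higher and 12 (19.7%) lower (6 higher and 14 lower without fish 2), against 6.21% and 6.92% of all models. TMIGD1 (LABE_00053039), an adhesion molecule of the epithelial surface, had 4415 to 28992 in segment 3 (median 16654) and 30161 to 45248 in segment 4 (median 39146) and rose by 1.43 (adjusted p = 0.0129, 1.12 without fish 2), with 4415 in segment 3 of fish 2 and medians of 143 and 228 in segments 1 and 2. Muc13 (LABE_00066417), a membrane mucin, had 33288 to 70006 in segment 3 (median 45516) and 14161 to 37840 in segment 4 (median 19530.5) and changed by -1.16 (adjusted p = 0.000457, -1.21 without fish 2). A model called Intestinal mucin-like protein (LABE_00005599) had 68998 to 101900 in segment 3 (median 97786) and 29678 to 56469 in segment 4 (median 36888) and changed by -1.20 (adjusted p = 0.00235, -1.20 without fish 2). Among goblet cell markers the mucin Muc2 changed by -1.39 (-1.44 without fish 2), and of 10 tested markers 1 was higher and 4 lower (0 higher and 3 lower without fish 2). The higher one was FCGBP LABE_00002036, at 2.99 (2.53 without fish 2). The FCGBP models LABE_00059034 and LABE_00023218 did not pass, with 2.82 (3.55 without fish 2) and 1.26 (1.67 without fish 2). Nor did agr2, with -0.14 (-0.17 without fish 2). The goblet cell markers named here were chosen after their values were seen. The part of goblet cell markers in the change of the mucin model was not tested.

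Immune genes were called higher less often than all models, and with all 6 fish their lower share was near that of all models. Of 398 models of antigen presentation and innate sensing 3 (0.754%) were higher and 22 (5.53%) lower, against 6.21% and 6.92% of all models. Most estimates of the list lay below 0, with a median of -0.26 (-0.24 without fish 2). Above 0 were 78 of the 398, against 9060 of all 18356 models. Without fish 2 there were 3 higher and 22 lower, and without the block 3 higher and 4 lower. Most of the list, 343 models, carried the names NLRC3, NLRC5 or NLRP12, a family of sensors with many similar copies in fish that can share reads, of which 2 were higher and 16 lower (2 higher and 14 lower without fish 2). Of the estimates of these 343 models 52 lay above 0. Among the other 55 models 1 was higher and 6 lower (1 higher and 8 lower without fish 2), and 26 estimates lay above 0. IFI30 (LABE_00037054), a thiol reductase that opens antigens in lysosomes, had 3663 to 4899 in segment 3 (median 4573) and 8302 to 11598 in segment 4 (median 9954) and rose by 1.17 (standard error 0.11, adjusted p = 0.000392) and 1.09 without fish 2, and it was as high in fish 2 (10793) as elsewhere. The CCL25 models LABE_00000745 and LABE_00026307, chemokines that draw lymphocytes to the gut, had 16480 to 25916 in segment 3 (median 21958) and 11101 to 21211 in segment 4 (median 14802) and 4924 to 9026 in segment 3 (median 7545) and 2684 to 7793 in segment 4 (median 5037). They changed by -0.50 (adjusted p = 0.0171, -0.54 without fish 2) and -0.60 (adjusted p = 0.0324, -0.74 without fish 2), with overlap in both.

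**Figure D4:**
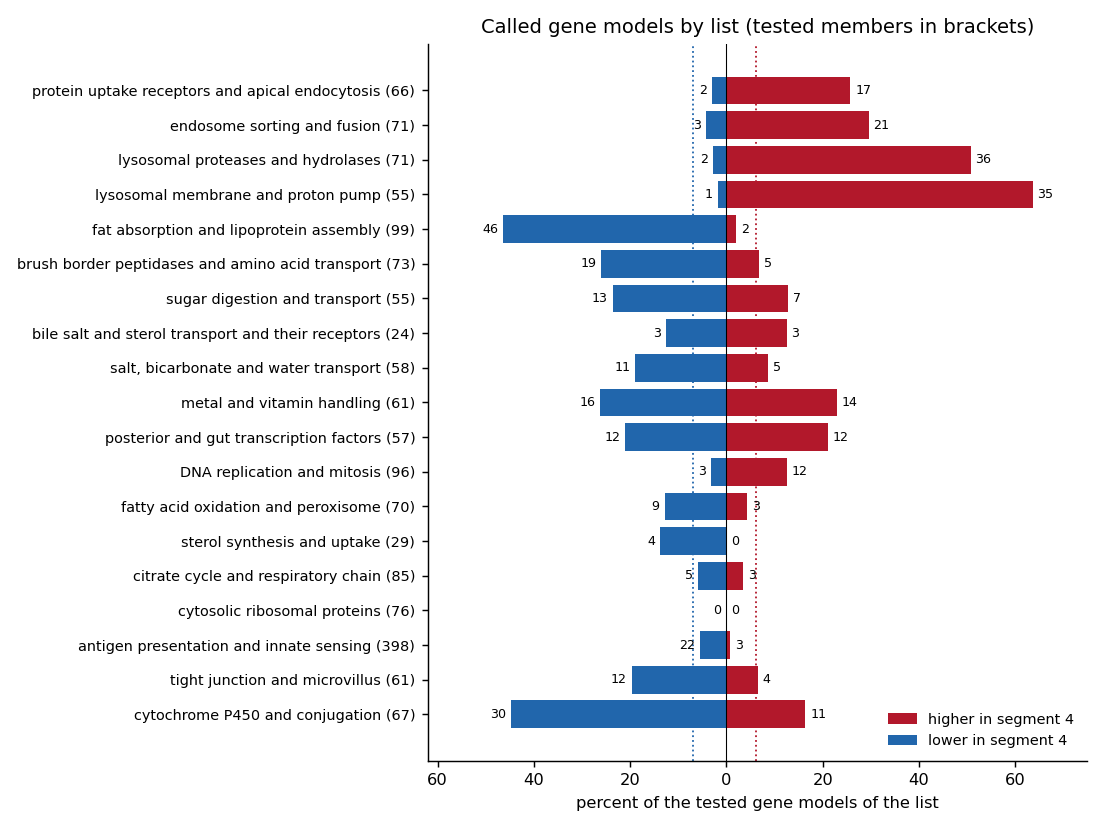
Share of the tested gene models of each of 19 lists that were higher (red, right) or lower (blue, left) in segment 4, in percent, with the number of models beside each bar and the tested members in brackets. Dotted lines mark the 6.21% and 6.92% of all models. The lysosomal lists extend furthest to the right, and fat absorption and cytochrome P450 furthest to the left.

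Gut hormones were measured at low levels. Peptide Y (LABE_00049925), a hormone of the neuropeptide Y family, had 27.4 to 2356 in segment 3 (median 114) and 0 to 20.0 in segment 4 (median 9.83) and changed by -4.57 (adjusted p = 0.00843, -4.22 without fish 2). A model without a name in the table is given as motilin, which drives gut contractions in mammals, in the text of the study. That model (LABE_00007846) had 357 to 490.5 in segment 3 (median 417) and 67.7 to 404 in segment 4 (median 129) and changed by -1.49 (adjusted p = 0.0112, -1.79 without fish 2). In fish 2 it stood at 404 and 404. The cholecystokinin model cck LABE_00001570 had 354 to 1079.5 in segment 3 (median 596) and 247 to 964 in segment 4 (median 646), a change of -0.16 (adjusted p = 0.62, -0.26 without fish 2) that did not pass. The models pyya LABE_00046718 and cck LABE_00034484 did not reach the minimum for the test, and pyya had 7.09 to 353 in segment 3 (median 45.9) and 1.25 to 5.46 in segment 4 (median 1.84). Nor did LABE_00022765, which the table calls pyy and the text of the study neuropeptide Y. Of the markers of enteroendocrine cells 4 of 10 tested were lower and none higher (6 lower without fish 2), where 6.92% of all models were lower and 6.21% higher. The summed counts of these markers were 2104 to 3667 in segment 3 (median 2532) and 938 to 2069 in segment 4 (median 1612). Their part in the fall of the hormones was not tested.

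Markers of other cell types were read in the same libraries, where 6.21% of all models were higher and 6.92% lower. Those of T cells, macrophages, erythrocytes and endothelium had no call among 6, 13, 9 and 9 tested models, while without fish 2 there were 2 calls for macrophages and 1 for endothelium. Of 21 smooth muscle models 3 were higher and 0 lower (4 higher and 0 lower without fish 2), and of 20 of B cells 2 were higher and 0 lower (2 higher and 3 lower without fish 2). Of 17 fibroblast models 2 were higher and 3 lower (2 higher and 3 lower without fish 2), and of 7 of liver 0 were higher and 1 lower (1 higher and 1 lower without fish 2). Enteric neurons and glia had 1 higher of 15 and adipose tissue 2 of 3, with the same counts without fish 2. Summed macrophage markers were 44633 to 51437 in segment 3 (median 48572) and 41504 to 66045 in segment 4 (median 50213), and overlapped. MRC1 is a gene of macrophages in mammals, and the part of these cells in its rise was not tested. Markers of the exocrine pancreas, whose tissue lies along the intestine of many fish, varied widely between fish. Their summed counts were 36483 to 374320 in segment 3 (median 97464) and 886 to 267498 in segment 4 (median 62396), none of 16 models passed, and the median change was -1.49 (-2.25 without fish 2).

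Some models that share a name moved in opposite directions. Among 3069 names carried by at least 2 tested models, 50 had both a higher and a lower model, and 25 of these had just 2 models, counted with all 6 fish. Meprin beta, a protease of the brush border, had Mep1b LABE_00047837 at 2.86 to 13.4 in segment 3 (median 5.65) and 50.1 to 6107 in segment 4 (median 1325), a rise of 6.84 (adjusted p = 0.000405, 7.49 without fish 2). Its other called copy, MEP1B LABE_00001936, had 706 to 4406 in segment 3 (median 2544) and 53.7 to 1527 in segment 4 (median 1028) and changed by -2.07 (adjusted p = 0.00688, -2.32 without fish 2). For SLC22A13, an organic anion transporter, LABE_00003833 had 1.07 to 13.3 in segment 3 (median 4.70) and 126 to 1198 in segment 4 (median 695) and rose by 6.38 (adjusted p = 0.000144, 6.46 without fish 2), while LABE_00003405 had 892 to 4468 in segment 3 (median 2030.2) and 125 to 1168 in segment 4 (median 309) and changed by -2.58 (adjusted p = 0.00791, -3.01 without fish 2). For ANXA2, an annexin of membranes, LABE_00052000 rose by 3.17 (adjusted p = 0.00409, 3.80 without fish 2) and LABE_00028675 changed by -1.62 (adjusted p = 0.00059, -1.81 without fish 2), and in fish 2 the first was equal in the segments (1937 and 1994). Slc6a19, a transporter of neutral amino acids, had 1 copy that rose (LABE_00075432) by 2.43 (2.51 without fish 2) and 3 that fell, the steepest being LABE_00034444 at -5.79 (-6.84 without fish 2). BCO1 had LABE_00069314 at 1.37 (1.44 without fish 2) beside the fall of LABE_00031873, and CDX1 had LABE_00045324 at -0.44 (-0.45 without fish 2) beside the rise of LABE_00038637. These pairs were chosen after their values were seen, and a name shared in the table does not show that 2 models are copies of a single ancestral gene.

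**Figure D5:**
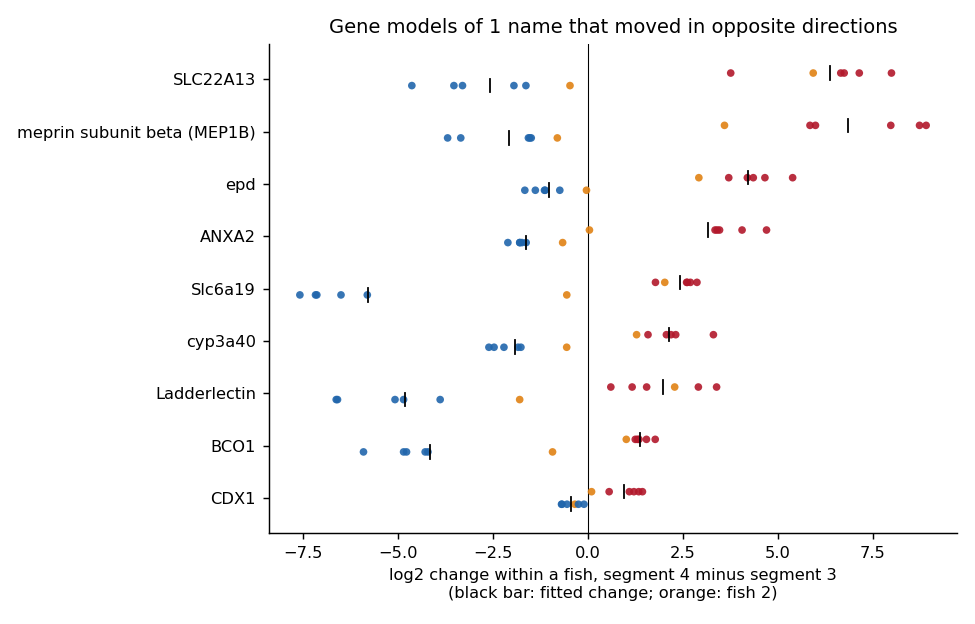
Log2 change of segment 4 minus segment 3 within each fish for 9 names with a rising (red) and a falling (blue) gene model, with a black bar for the fitted change and fish 2 in orange. In each name all points of the rising model lie right of 0 and all points of the falling model left of it.

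Segments 1 and 2, which the comparison did not use, show where these levels lie along the gut. Of the 1270 models lower in segment 4, 940 had a mean in segment 1 above both segments 3 and 4, and for 687 the mean fell in order from segment 1 to 4 (1135 and 729 of 1724 without fish 2). Another 282 had their highest mean in segment 3 (514 without fish 2). PLB1 LABE_00025919, chosen after its values were seen, is such a model, with 29.6 to 77.3 in segment 1 (median 47.9) and 72.3 to 9067 in segment 2 (median 144), 10567 to 39581 in segment 3 (median 24432) and 5116 to 16630 in segment 4 (median 5716), and a change of -1.79 (adjusted p = 0.0228, -2.28 without fish 2), though it rose in fish 2. Of the 1139 higher models, 303 rose in order from segment 1 to 4 (399 of 1612 without fish 2). With a change of over 1 on the log2 scale, 399 higher and 396 lower models had means within a factor of 2 of each other across segments 1 to 3 (484 and 505 without fish 2).

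A smaller set of hind-gut genes was also high at the front end. For 51 of the models higher in segment 4 the mean of segment 1 was above that of segment 4 (108 without fish 2). CUZD1 (LABE_00026701), a secreted protein with CUB and zona pellucida domains, had 26894 to 209330 in segment 1 (median 126650) and 839 to 10637 in segment 2 (median 2311), 50.1 to 5528 in segment 3 (median 132) and 4709 to 48492 in segment 4 (median 25370). OLFM4 (LABE_00009047), olfactomedin, a secreted glycoprotein of crypts in mammals, had 8681 to 66099 in segment 1 (median 41609.5) and 192 to 3697 in segment 2 (median 849), 9.76 to 1938 in segment 3 (median 23.5) and 1206 to 13288 in segment 4 (median 7257). Both dropped from segment 1 to 3 and rose again, with changes of 6.68 (adjusted p = 0.00108, 6.81 without fish 2) and 6.83 (adjusted p = 0.00171, 7.07 without fish 2). The highest segment 3 value of each was that of fish 6, 5528 and 1938, and without fish 2 and 6 the set held 80 models. Agt (LABE_00026700), angiotensinogen, the precursor of a blood pressure hormone, had 845 to 7339.7 in segment 1 (median 4336) and 44.1 to 368 in segment 2 (median 106), 6.67 to 212 in segment 3 (median 14.0) and 259 to 2241 in segment 4 (median 1128), and changed by 5.56 (adjusted p = 0.00084, 5.84 without fish 2). These genes were picked after their values were seen.

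The step into the hind-gut was set against the other steps within each fish. The minimum level for a model was set on the libraries of segments 3 and 4, which can favour the step between them. The root mean square difference between segments 4 and 3 over the 18356 models was 1.05 ± 0.17 on the log2 scale (SD, 6 fish), against 0.716 ± 0.157 between segments 3 and 2 and 0.681 ± 0.173 between segments 2 and 1. It exceeded the step from 2 to 3 by a mean of 0.333 over the 6 fish, and was the larger step in 5 of 6, all but fish 2 (exact permutation test over fish, two-sided p = 0.0625, adjusted p = 0.0625 over 2 tests). It exceeded the step from 1 to 2 by a mean of 0.368, and was the larger step in 6 of 6 fish (exact p = 0.03125, the smallest this design allows, adjusted p = 0.0625). With every gene model above 0 in place of that minimum the excesses were 0.258 and 0.286 (exact p = 0.0625 in both). Without fish 2 the excesses were 0.430 and 0.374, and 5 fish cannot give an exact p under 0.0625. The share of all counts held by the 100 most abundant models of a library was 24.5% ± 1.14 in segment 3 and 23.3% ± 0.905 in segment 4 (SD, n = 6), a difference of -1.11 percentage points (-0.744 without fish 2) that did not pass the exact permutation test over fish (p = 0.156 with 6 fish).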

How the data were processed

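Intestinal RNA of 6 ballan wrasse, each with 4 segments, was sequenced after TruSeq library preparation. The authors trimmed reads with cutadapt and sickle, checked them with FastQC 0.9.2, mapped them to their genome assembly using TopHat2, assigned them to gene models using featureCounts (Subread) and normalised the counts using DESeq2. For the strand setting and the other versions: not given in the sources used here. Deposited values are normalised counts, a signal in reads over a size factor, and models with under 1 read in all samples had been left out by the authors. Whole reads could be recovered, since in each library 98.6% to 100% of the values came within 0.05 of whole numbers once multiplied by the factor. The 1 line without a gene model was left out. All 24 value columns were used. Depth is given with the results. The p-values of the paired fit and the exact tests rest on how differences within a fish vary between fish.

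Gene models with at least 10 in at least 6 of the 12 libraries entered limma 3.58.1 in R 4.3.3 on the log2(value + 1) scale, with trend and fish as a block, two-sided, with Benjamini-Hochberg adjustment over all 18356 models and a threshold of 0.05. Pairing comes from the labels, since each fish gave both segments. With segment means removed, the 2 libraries of a fish correlated at 0.357 on average (0.193 to 0.569), and libraries of different fish at -0.0702. Where the libraries of a fish correlate, removing the means itself makes the value for different fish negative, so that it is no separate baseline. The study states no pairing. Single values were tested by exact permutation over fish. The scripts were tested on simulated data.

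The gene models named follow a rule: the 10 with the largest change in each direction that moved alike in all 6 fish with a mean of at least 50 in the higher segment, the 8 with the largest difference in mean in each direction, at most 3 called members of each function list, by mean, and the models that the paper gives for intestinal genes. Others were chosen after their values were seen and are given as such. The comparison, the gene lists and the rule were all chosen with earlier results of these data known. Alternatives were edgeR 4.0.16 and DESeq2 1.42.0 on the recovered reads, other pseudocounts, filters, scalings, weights and sample sets, and each fish left out. Leaving out fish 2 and 6 together was chosen after seeing the data. Sequences and coordinates were not used here, and some named models are not reported here.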

Additional observations from a re-analysis of the deposited data

Results flagged for a closer look

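Within-fish changes of 87 values, made up of 85 named gene models, the distance between the segments and the share of the 100 most abundant models, were examined for a fish far from the other 5. In 21 of them 1 fish stood out, and in all 21 it was fish 2. Chance alone marks about 1 in 20 groups. The 87 values come from the same libraries and are not independent, so that this rate does not show how unusual 21 is.

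Among models that fell, the log2 change in fish 2 was much smaller than in the rest. For ENPP7 it was -0.35 against -8.87 to -8.09 in the other fish (LABE_00049716) and -0.11 against -10.00 to -7.25 (LABE_00030517). CERS2 had -0.40 against -8.20 to -7.42, RBP2 had -0.81 against -8.44 to -7.02 and PLB1 had -1.06 against -9.35 to -7.05. The peptide transporters had -0.68 against -8.13 to -6.94 (Slc15a1, LABE_00017465) and -1.03 against -5.88 to -5.36 (SLC15A1, LABE_00037938). LCT had -0.69 against -8.80 to -6.45 and MGAM had -0.47 against -4.45 to -3.26. Type-4 ice-structuring protein LS-12 (LABE_00017890), which had 96983 to 458590 in segment 3 (median 159650) and 731 to 86191 in segment 4 (median 1292), changed by -2.41 against -7.65 to -6.13. SIDT2 had -1.78 against -6.24 to -5.02 and Trim16 had -1.65 against -8.01 to -6.64. BCO1 had -0.93 against -5.91 to -4.21 and gata6-a had -0.15 against -2.10 to -1.42. The peroxisomal genes cat and Abcd3 rose slightly in fish 2, with 0.10 against -1.45 to -0.97 and 0.13 against -1.16 to -0.92.

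Models that rose showed the same. SNX1 changed by 0.71 against 1.44 to 1.71, Vps35 by 0.0217 against 0.46 to 0.59, LAMP2 by 0.27 against 1.16 to 1.64, ATP6V0A2 by 0.20 against 1.19 to 1.61 and IDH2 by 0.43 against 0.76 to 0.93. Each of these 21 models was called with fish 2 and without it. Over all models called in the other 5 fish, fish 2 moved the same way for 66.7% of 1612 higher ones and 63.5% of 1724 lower ones, while for the remaining fish, treated alike in turn, these shares were 97.0% to 98.1% and 94.1% to 98.6%. The sets were not alike. Models judged in fish 2 had median changes of 0.804 and -0.846 in the other 5 fish. For the remaining fish the sets held 747 to 806 higher and 789 to 913 lower models, with medians of 1.11 to 1.18 and -1.14 to -1.04. The part of this in the shares was not tested.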

How the results depend on the processing

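Counts of calls depended on the fish included. Of 2409 models that differed, 1542 to 3336 differed with 1 fish left out, the highest without fish 2, and 1542, 1581 and 1576 without fish 1, 4 and 6. Higher models were 747 to 1612 (753 and 747 without fish 1 and 4) and lower models 789 to 1724 (789, 834, 833 and 815 without fish 1, 4, 5 and 6). With no replicate block the paired libraries gave 1801 calls, 872 higher and 929 lower, of which 1718 were shared with the paired fit. With all 24 libraries and the replicate block there were 3566 calls, 1714 of them higher. Against a minimum log2 change of 1, 240 passed, 129 higher and 111 lower. edgeR called 2279 (1113 higher, 1166 lower) and DESeq2 3152 (1527 higher, 1625 lower). The 51 higher models with a higher mean in segment 1 became 32 with no replicate block, 129 with all 24 libraries and the block, 111 with array weights, 93 with DESeq2, 5 against the minimum change, 80 without fish 2 and 6, and 19 to 108 with 1 fish left out. Each fish left out moved this count by over 1.5 times: 24, 108, 27, 19, 25 and 31 without fish 1 to 6. The distance from segment 4 to 3 exceeded that from 2 to 1 by 0.286 (exact p = 0.0625) with every gene model above 0, and by 0.294 to 0.425 with 1 fish left out, where 5 fish cannot go below 0.0625. Of 85 named models tested, 9 lost their call with no replicate block, 50 against the minimum change and 13, 1, 10, 9, 10 and 11 without fish 1 to 6. Without the block, higher models of the fat list went from 2 to 0, those of DNA replication from 12 to 2 and lower models of the antigen list from 22 to 4. No called result turned its direction, but some that were not called did, among them Fabp6, from 0.79 to -0.12 without fish 2. Scaling moved the median of all models by under 0.1 (-0.0097 to 0.0002 on the log2 scale). The cause of these shifts was not tested. Bulk tissue, unresolved gene copies and unknown strandedness limit single models.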

Other observations

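Ladderlectins, lectins known from rainbow trout to bind microbes, moved both ways. Of 8 tested models 2 were higher and 3 lower in the hind-gut, against 6.21% and 6.92% of all models. LABE_00064509 had 10680 to 89757 in segment 3 (median 20574) and 27847 to 127030 in segment 4 (median 110661) and rose by 1.61 (adjusted p = 0.0219, 1.45 without fish 2), and LABE_00064508 had 4062 to 25045 in segment 3 (median 10668) and 14586 to 57357 in segment 4 (median 54799) and rose by 1.98 (adjusted p = 0.00596, 1.92 without fish 2). Both were lower in segments 1 and 2, with medians of 1585 and 1969 for the first. LABE_00053483 ran the other way, with medians of 82842 and 29806 in segments 1 and 2, 3769 to 8963 in segment 3 (median 5306) and 48.2 to 2582 in segment 4 (median 171), and a change of -4.81 (adjusted p = 0.00102, -5.41 without fish 2). LABE_00068125 and LABE_00077322 changed by -4.36 (-4.84 without fish 2) and -4.78 (-5.38 without fish 2). All 8 except LABE_00064509, and all genes that follow, were chosen after their values were seen.

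Further genes outside the lists were higher in the hind-gut. A ferritin called Ferritin, liver middle subunit (LABE_00051159), an iron store, had 5668 to 7756 in segment 3 (median 6451) and 10761 to 61004 in segment 4 (median 39539.5) and rose by 2.37 (standard error 0.26, adjusted p = 0.000707) and 2.67 without fish 2. cyb561a3 (LABE_00003711), a cytochrome b561 that reduces iron in lysosomes of mammals, had 4412 to 8173 in segment 3 (median 5496) and 10794 to 31847 in segment 4 (median 25126) and rose by 2.02 (adjusted p = 0.000259, 2.17 without fish 2). CPVL (LABE_00023289), a serine carboxypeptidase, had 2445 to 5354 in segment 3 (median 3415) and 12976 to 34357 in segment 4 (median 24121) and rose by 2.73 (adjusted p = 4.07e-06, 2.79 without fish 2). EPX (LABE_00008768), named for eosinophil peroxidase, had 18783 to 208860 in segment 3 (median 33714) and 61213 to 139520 in segment 4 (median 96864) and rose by 1.17 (adjusted p = 0.0453, 1.52 without fish 2), but fish 2 held the highest value of segment 3, 208860, and fell.

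Some models were high in segment 4 of single fish. A further Lrp2 model (LABE_00059820) had 0 to 187 in segment 3 (median 4.21) and 0.911 to 1642 in segment 4 (median 74.4) and an adjusted p of 0.307. CTSZ (LABE_00053140) had 0 to 431 in segment 3 (median 9.54) and 0 to 2135 in segment 4 (median 205) and an adjusted p of 0.408. In segment 4 their highest values were those of fish 1 and fish 5, 1290.5 and 1642 for Lrp2 and 1256 and 2135 for CTSZ.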
